A study of Mus musculus with 6 samples.

Results

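The genes of the cytosolic ribosomal proteins were examined in RNA-seq data from the muscle of mice with and without *Tarsl2*, the gene of a threonyl-tRNA synthetase-like protein. Members were taken by name from the count table: protein-coding rows whose symbol starts with Rpl or Rps and a digit, plus *Rplp0*, *Rplp1*, *Rplp2* and *Rpsa*. The S6 kinases (Rps6k), rows named as pseudogenes (-ps) and *Rps19bp1*, which codes for no subunit of the ribosome, were left out. This gave 85 of 53084 rows. Of these, 31 code for core proteins of the small subunit, 43 for core proteins of the large subunit and 3 for the P-stalk, and 8 are paralogs of a core gene. The P-stalk was counted with the core, which thus held 77 genes.

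The study compared 3 wild-type mice (*Tarsl2*+/+, here WT 583, 584 and 595) with 3 homozygous knockouts (*Tarsl2*-/-, here KO 588, 589 and 591), 1 library per mouse. All were males, 6 weeks old and kept on standard chow, of the strain listed as C57BL/6. The line was founded and crossed in C57BL/6J, by the study's methods. The deletion is carried by all tissues. The allele lacks a genomic fragment with exon 3, cut out with Cas9 and a pair of guide RNAs. Which muscle was taken is not given in the sources used here. The sample records describe a retinal extraction, but no gene of a list of 10 markers of the retina exceeded 7 counts, and 10 markers of muscle fibres together held between 112469 and 128543 CPM (counts scaled to the size of the library by TMM, the trimmed mean of log ratios). Library totals were between 16176591 and 20123767 counts. *Tarsl2* itself had between 456 and 605 counts in WT and between 30 and 40 in KO libraries.

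Each cytosolic ribosome joins a small subunit, which decodes the mRNA, with a large subunit, which forms the peptide bond. Their proteins are needed in nearly equal numbers, and most are coded by a single intron-containing gene with many processed pseudogenes, which are intronless copies elsewhere in the genome. The mRNAs of these genes start with a cytosine and a run of pyrimidines, the 5′ terminal oligopyrimidine (TOP) motif, through which mTORC1 and LARP1 adjust their translation together. Striated muscle also makes a large-subunit paralog, *Rpl3l*, in place of part of *Rpl3*.

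The sequences are shown first for the features that members share or that set paralogs apart. Promoter windows, 250 bases before to 50 after the annotated start, were found in RefSeq (GRCm38.p6) for 65 of the 85 members. A cytosine followed by at least 4 pyrimidines stood exactly at the annotated start in 13 of these 65 windows, against 2.49% of 27025 windows of all genes. Within 10 bases on either side of the start, the same run was found in 56.9% against 30.8%. The letters CCGGAAG, searched on both strands as the core of a GABPA (ETS) site, stood in 38.5% of members' windows against 9.12% of all, and AAGATGG (YY1) in 13.8% against 6.48%. GGGCGG (Sp1) stood in 39 of the 65 windows, against 35.9% of all. The TATA letters TATAAA were in 9.23% against 14.2%. CAGCTG, an E-box that muscle factors bind, was in 6.15% against 16.1%, and CACGTG, the E-box of Myc, in 7.69% against 7.24%. A match is a run of letters, not a tested site. The windows of *Rps27* and *Rpl35* illustrate the pyrimidine run at the start, that of *Rps27l* the ETS letters, and that of *Rpl3l* the letters CAGCTG. The windows of *Rpl6*, *Rpl35* and *Rpl10l* held CAGCTG too. *Rpl22l1* illustrates the TATA letters, there on both strands. The 80 bases printed run from 60 before to 20 after the annotated start, 5′ to 3′ on the gene's strand, with the run or motif in capitals.
Rps27, minus strand, chr3:90213629-90213708: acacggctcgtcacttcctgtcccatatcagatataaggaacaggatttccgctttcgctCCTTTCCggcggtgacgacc
Rpl35, minus strand, chr2:39005112-39005191: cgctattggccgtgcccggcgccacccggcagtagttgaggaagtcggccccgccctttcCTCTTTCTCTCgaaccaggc
Rpl3l, plus strand, chr17:24727766-24727845: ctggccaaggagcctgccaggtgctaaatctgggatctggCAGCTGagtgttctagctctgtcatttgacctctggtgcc
Rps27l, plus strand, chr9:66946026-66946105: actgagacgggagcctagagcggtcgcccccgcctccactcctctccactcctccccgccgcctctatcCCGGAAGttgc
Rpl22l1, plus strand, chr3:28805448-28805527: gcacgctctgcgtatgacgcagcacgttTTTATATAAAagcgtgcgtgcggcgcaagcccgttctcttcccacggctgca

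Paralogs differ from their parent gene by very different amounts, which matters for counting reads. Over the aligned coding sequence, *Rpl3l* was 73.1% identical to *Rpl3*, *Rpl10l* 84.7% to *Rpl10* and *Rpl22l1* 66.9% to *Rpl22*. *Rpl36al* was 87.7% identical to *Rpl36a*, and *Rpl7l1* 51.7% to *Rpl7*. *Rps27l* had 60 mismatches to *Rps27*, spread over its 252 coding bases, and *Rpl39l* had 23 mismatches to *Rpl39* over 153. *Rps27rt* did not differ from *Rps27* at any coding base. The coding sequences of these genes (GENCODE vM21, without the stop codon) are shown with differing bases in capitals, *Rpl39* and *Rpl39l* against each other and *Rps27l* against *Rps27*. *Rpl41*, with 75 coding bases the shortest member, is added because it had the highest level.
Rpl39: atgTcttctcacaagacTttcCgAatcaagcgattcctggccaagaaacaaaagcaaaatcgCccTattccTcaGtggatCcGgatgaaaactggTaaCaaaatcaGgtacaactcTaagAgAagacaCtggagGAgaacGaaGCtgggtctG
Rpl39l: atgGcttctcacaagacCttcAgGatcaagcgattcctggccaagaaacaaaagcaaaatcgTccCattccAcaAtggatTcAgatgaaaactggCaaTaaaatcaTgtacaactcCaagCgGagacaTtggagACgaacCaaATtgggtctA
Rps27 and Rps27rt: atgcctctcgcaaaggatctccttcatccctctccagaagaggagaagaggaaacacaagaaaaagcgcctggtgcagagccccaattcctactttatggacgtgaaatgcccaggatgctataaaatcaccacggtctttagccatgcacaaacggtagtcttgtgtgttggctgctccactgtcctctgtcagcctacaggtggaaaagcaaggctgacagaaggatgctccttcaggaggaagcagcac
Rps27l: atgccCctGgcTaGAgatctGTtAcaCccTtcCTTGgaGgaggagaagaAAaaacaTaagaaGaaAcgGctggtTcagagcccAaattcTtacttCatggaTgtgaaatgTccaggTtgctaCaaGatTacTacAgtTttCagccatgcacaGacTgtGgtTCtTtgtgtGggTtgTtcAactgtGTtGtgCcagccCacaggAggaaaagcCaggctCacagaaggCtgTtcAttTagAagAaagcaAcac
Rpl41: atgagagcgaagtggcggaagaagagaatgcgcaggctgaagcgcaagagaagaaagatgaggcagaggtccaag

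Pseudogenes bear on every value below. Of the 100-base windows of each member's mRNA, at least 50% also occurred in the annotated transcripts of other genes for 36 members. For 9 members no window did, among them *Rpl3l*, *Rpl10l*, *Rpl22*, *Rpl32*, *Rpl39l*, *Rps3*, *Rps21* and *Rps27l*. Whether the authors counted reads that fit more than 1 place is not given in the sources used here, so values of members with many shared windows are uncertain.

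No ribosomal protein gene passed the threshold of 0.05 on the adjusted p for a difference between the genotypes (edgeR's quasi-likelihood test, Benjamini-Hochberg adjustment over all 15075 tested genes). Of the 84 members with enough counts for the test, 0 were called higher in KO and 0 lower. Of all tested genes 2.27% were called, 0.896% higher and 1.37% lower. DESeq2 and limma-voom also called 0 members, against 4.53% and 2.11% of the genes they gave an adjusted p. At an unadjusted p under 0.05, edgeR listed 6 members, 2 with a higher and 4 with a lower mean in KO, where 19.8% of all genes reached that level. The smallest adjusted p of a member was 0.114, for *Rpl17*. The 95% interval of the log2 fold change (KO over WT) lay within 0.5 of 0 for 68 of the 84 members (81.0%), against 48.3% of all genes, and within 1 for 82. Members and all genes were not matched for level of expression here. KO and WT values did not overlap for 6 members, against 24.6% of all genes. KO lay above WT for *Rpl4*, *Rpl5*, *Rpl31* and *Rpl3l* and below WT for *Rpl17* and *Rpl39l*. When genes down to 1 count in any library were kept, edgeR called 4 members lower, where it called 3.23% of all genes lower. These were *Rpl17*, *Rps27a*, *Rps27l* and *Rpl34*. Their log2 fold changes were those of the main fit after rounding, so the calls came with smaller p, not with larger differences. For *Rpl17* the adjusted p (edgeR) went from 0.114 to 9.0e-15.

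**Figure D1:**
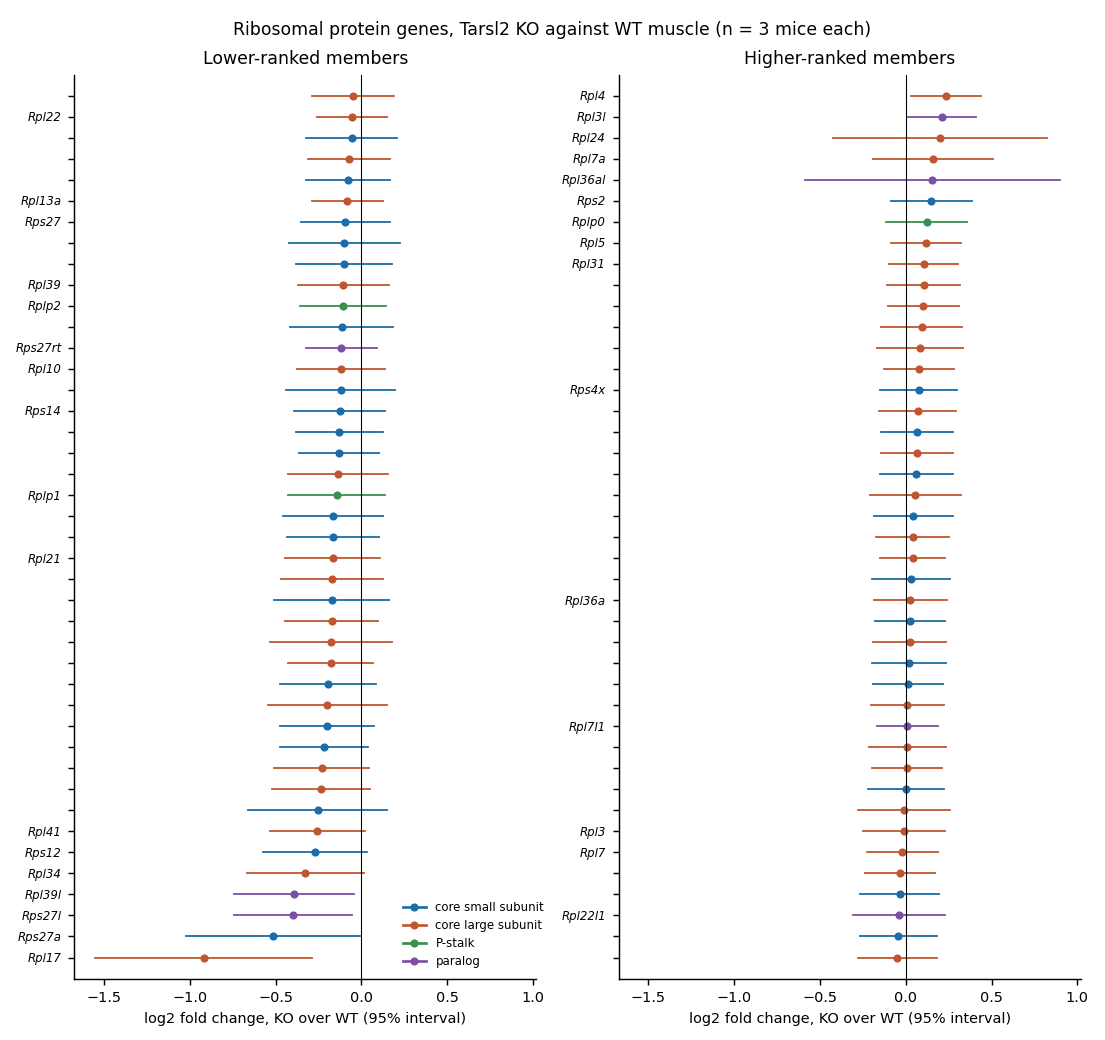
Log2 fold change of each of the 84 tested ribosomal protein genes, KO over WT, with its 95% interval from edgeR (3 mice per genotype), coloured by group and ranked from the lowest at the bottom of the left panel to the highest at the top of the right panel, with gene symbols for the members described in the text. Most intervals include 0, and the core genes farthest from 0 are *Rpl17* at -0.92 and *Rps27a* at -0.52.

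The core as a whole moved little between genotypes. Its median log2 fold change was -0.05, beside 0.00 (0.0025) for all tested genes, and 31 of its 77 genes had a positive and 46 a negative sign, where 50.4% of all genes were positive. In the small subunit, 10 genes were positive and 21 negative, with a median of -0.10. In the large subunit, 20 were positive and 23 negative, with a median of -0.01. The sign of the core median turned when 1 library was left out: without WT 595 it was 0.03, and without WT 584 it was -0.11.

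Summed counts on the core took 11.3% of all counts in WT 583, 10.1% in WT 584 and 12.4% in WT 595. In KO 588, KO 589 and KO 591 they took 10.5%, 10.6% and 10.7%. The 3 KO libraries lay close together, inside the range of the 3 WT libraries. The means were 11.3 ± 1.17% in WT and 10.6 ± 0.10% in KO (SD, n = 3 each), a difference of -0.678 percentage points that was smaller than the SD of WT and was not tested. Without WT 595, the WT mean was 10.7%. The small subunit held between 4.82% and 5.91% and the large subunit between 4.61% and 5.70% of the counts of a library, and the P-stalk between 0.670% and 0.828%.

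The core genes moved together between WT mice more than between KO mice. WT 595 had the highest CPM of all 6 libraries for 57 of the 77 core genes, where it was highest for 21.6% of all tested genes. WT 584 had the lowest CPM for 44 core genes, where it was lowest for 13.7% of all genes. The median deviation of the core from each gene's mean was 0.18 on the log2 scale in WT 595 and -0.14 in WT 584, and between -0.03 and 0.01 in the other 4 libraries. The median coefficient of variation of a core gene was 13.2% among WT and 4.47% among KO mice, while for all tested genes it was 11.1% and 10.9%. It was larger in WT for 70 of the 77 core genes, against 50.2% of all genes. With WT 595 set aside, it was larger in WT for 56 of the 77, against 40.2% of all genes. The difference in spread was not tested, because each genotype has 3 mice. In these comparisons the core and all tested genes were not matched for level of expression.

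**Figure D2:**
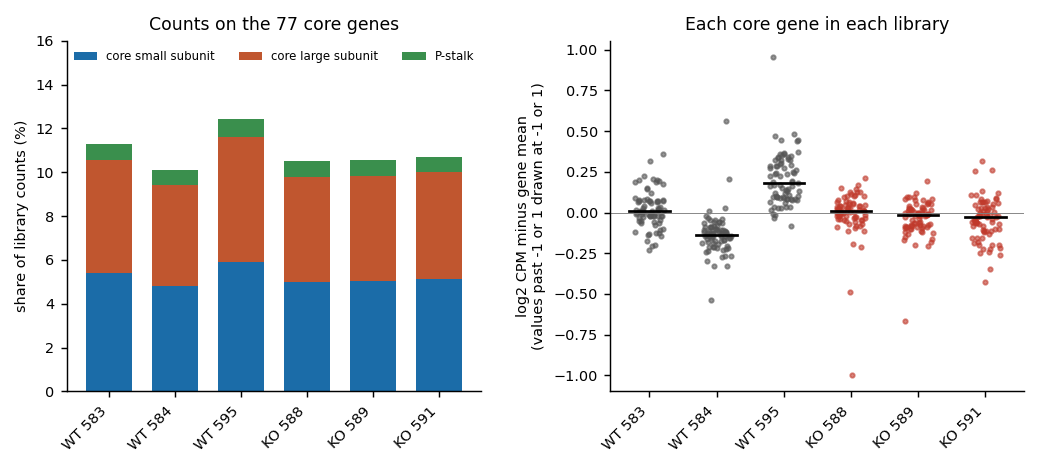
Left, counts on the 77 core genes as a share (percent) of all counts of each library, stacked by small subunit, large subunit and P-stalk. Right, log2 CPM of each core gene minus its mean over the 6 libraries, 1 point per gene, with the median of a library as a black line and values past -1 or 1 drawn at -1 or 1. WT 595 sits highest with a median of 0.18 and WT 584 lowest with -0.14, and the KO libraries lie between them.

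Markers of red cells and of leukocytes also differed between libraries. The 4 haemoglobin genes together had 7175, 4716 and 10283 CPM in WT 583, 584 and 595 and between 4134 and 4501 CPM in KO libraries, so they too were highest in WT 595. Of 14 tested leukocyte markers, 8 were lower in KO (adjusted p under 0.05, edgeR) and 0 higher. Together they had 1557, 1301 and 1546 CPM in WT 583, 584 and 595, so WT 595 was not the highest. In KO they had between 697 and 898 CPM. Of 8 erythrocyte markers, 0 passed, and all 8 had a negative fold change. No gene of either list was at 0 in every library. Lists of other cell types went both ways. Of 10 fibre markers, 8 had a positive sign and 2 were called higher. Among 10 satellite cell markers, 5 were positive and 1 was called higher. All 10 endothelial markers were negative and 1 was called lower. Fibroblast markers were negative for 9 of 10, with 0 called. Of 8 adipocyte markers, 7 were positive and 0 called. Of all genes, 0.896% were called higher and 1.37% lower. Whether the cell makeup of the samples plays a part in the core's values was not tested, and fewer cells of a type and less RNA per cell cannot be told apart in bulk muscle.

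Fold changes of core genes were related to the length of what they encode. Shorter genes tended to have the lower fold changes, with a Pearson r of 0.44 and a Spearman rho of 0.55 between coding length and log2 fold change across the 77 genes, which share the 6 libraries. Genes of intermediate length stood at both ends, with *Rpl17* (552 coding bases) and *Rps27a* (468) lowest and *Rpl24* (471) second highest. Across the 44 core genes with under 50% of shared windows, r was 0.74 and rho 0.67. All 9 core genes with at most 300 coding bases had a negative sign, with a median of -0.12, and so had 20 of 27 genes with 300 to 450 bases, with a median of -0.11. The 19 genes with 450 to 600 bases had a median of 0.01, and the 19 with 600 to 900 also had 0.01. The 3 longest, *Rplp0*, *Rpl3* and *Rpl4*, had a median of 0.12.

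Other protein-coding genes showed bin medians in the same order, with a weaker relation across genes. Across the 7185 with at most 1500 coding bases, r was 0.11 and rho 0.14. The 287 tested ones with at most 300 coding bases had a median log2 fold change of -0.13, and 73.2% of them were negative. The medians of the next bins were -0.09, -0.04 and -0.02, and that of the 3655 genes with 900 to 1500 bases was 0.02. The difference between these relations was not tested. Within single libraries, the deviation of core genes from their mean had a rho with coding length of -0.51 in WT 583, 0.30 in WT 584 and -0.50 in WT 595. In KO 588, 589 and 591 it was 0.01, 0.44 and 0.60. Without WT 595, the rho of the fold change with length was 0.49, and the median of the 9 shortest genes was -0.05. The median of the 27 genes with 300 to 450 bases then turned to 0.02, while that of other genes in this bin was -0.06. Across other genes, rho without WT 595 was 0.11.

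**Figure D3:**
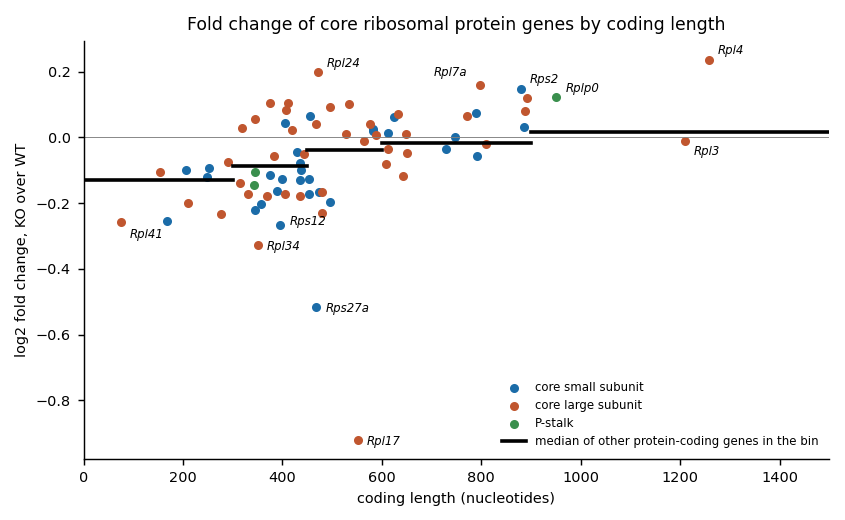
Log2 fold change, KO over WT, of the 77 core genes against coding length in nucleotides, coloured by subunit, with black bars for the median of other protein-coding genes in the same length bin. Genes at most 300 nucleotides long have a median of -0.12, beside -0.13 for other genes, and both medians are higher for longer genes.

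Within the large subunit, *Rpl4*, whose protein lines the exit tunnel, had the highest log2 fold change of the core. The gene lies at chr9:64173375-64178666 (GRCm38, plus strand), and 5.14% of its windows were shared. It had 1075, 1121 and 1219 CPM in WT and 1349.9, 1319 and 1354 CPM in KO libraries, so that every KO value lay above every WT value. Its log2 fold change was 0.24 (SE 0.09, adjusted p = 0.192, edgeR). *Rpl5*, which binds the 5S rRNA, had 1035, 1071 and 1164 CPM in WT and 1178, 1181 and 1191 in KO, and its log2 fold change was 0.12 (adjusted p = 0.520, edgeR). *Rpl31*, at the exit of the tunnel, was likewise apart, with 1366, 1287 and 1388 CPM against 1452, 1413 and 1481, a log2 fold change of 0.10 (adjusted p = 0.572, edgeR). Both differences were at most 0.12 on the log2 scale, beside an SE of 0.09. In *Rpl5* 91.1% and in *Rpl31* 52.5% of the windows were shared, which leaves these values uncertain.

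The other core genes with the highest fold changes did not separate the genotypes. *Rps2*, a small-subunit protein near the mRNA entry, had 2892, 2928 and 3486 CPM in WT and 3414, 3381 and 3516 CPM in KO, with WT 595 inside the KO range, and a log2 fold change of 0.15 (SE 0.11, adjusted p = 0.485, edgeR). In *Rps2* 64.7% of the windows were shared. *Rpl7a* had 249, 229 and 347 CPM against 251, 328 and 342, a log2 fold change of 0.16 (SE 0.16, adjusted p = 0.629, edgeR), and 73.5% of its windows were shared. *Rpl24* had 30, 20 and 30 counts in WT and 32, 22 and 38 counts in KO, with a log2 fold change of 0.20 (SE 0.28, adjusted p = 0.749, edgeR). Of the windows of *Rpl24*, 80.1% were shared, and whether this bears on its few counts was not tested.

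At the other end stood *Rpl17*, a large-subunit protein at the tunnel exit. The gene lies on chromosome 18 (chr18:75000477-75003381, plus strand). It had 17797, 18167 and 30956 counts in WT 583, 584 and 595 and 6115, 11631 and 17566 counts in KO 588, 589 and 591. After scaling this was 1040.4, 965 and 1625 CPM against 341, 725 and 854 CPM, so that KO lay below WT, with a log2 fold change of -0.92 (SE 0.29, adjusted p = 0.114, edgeR). The values within a genotype varied widely, and 77.1% of the windows were shared.

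A pseudogene of *Rpl17* held a large share of the counts on the family. *Rpl17-ps10*, an intronless copy at chr7:72648757-72649311, had 10466, 8022 and 10298 counts in WT and 19534, 11058 and 11608 counts in KO libraries. KO 588, with the lowest count on *Rpl17*, had the highest count on the copy. Of all counts on *Rpl17* and the 7 rows named as its pseudogenes, the gene itself held 60.1%, 66.0% and 72.1% in WT and 22.5%, 48.7% and 57.6% in KO libraries. With the 8 rows summed, the counts were 29623, 27527 and 42917 in WT and 27128, 23904 and 30509 in KO. The genotypes then overlapped, and the log2 fold change was -0.28 (SE 0.14, adjusted p = 0.300, edgeR), a setting added after the data were seen. Summing moved the fold change of the other 58 members with such rows by at most 0.08.

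**Figure D4:**
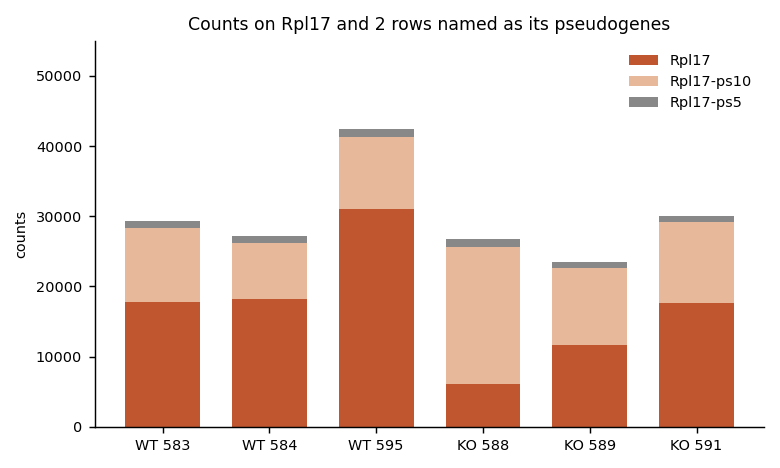
Counts on *Rpl17* and on 2 of the rows named as its pseudogenes in each of the 6 libraries, stacked. The gene holds 6115 counts in KO 588, where *Rpl17-ps10* holds 19534, and the stacks differ less between libraries than the gene alone.

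*Rps27a*, which codes for ubiquitin fused to a small-subunit protein, had 824, 949 and 607 CPM in WT and 459, 406 and 800.0 CPM in KO. KO 591 lay inside the WT range and WT 595 was the lowest WT library, the reverse of most core genes. The log2 fold change was -0.52 (SE 0.23, adjusted p = 0.247, edgeR), with 69.1% of windows shared. With its 2 named pseudogene rows added, it was -0.47 (adjusted p = 0.258, edgeR). Without KO 591 it was -0.88 (adjusted p = 0.0576, edgeR), and without KO 589 -0.33.

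*Rpl34*, *Rps12* and *Rpl41* completed the lowest core genes. *Rpl34* had 2948, 2212 and 3557 CPM in WT and 2544, 2238 and 2166 CPM in KO, a log2 fold change of -0.33 (SE 0.16, adjusted p = 0.273, edgeR). The genotypes overlapped because WT 584 was low. Without WT 584 its log2 fold change was -0.49 and passed the threshold (adjusted p = 0.0444, edgeR), the only member to do so when a library was left out, where 2.49% of all genes passed as lower. Without WT 595 it was -0.16 (adjusted p = 0.623, edgeR). *Rps12*, a small-subunit protein with 88.9% of windows shared, had 1653, 1427 and 2147 CPM against 1460, 1494 and 1388, a log2 fold change of -0.27 (SE 0.14, adjusted p = 0.313, edgeR), which was -0.09 without WT 595. *Rpl41*, the short peptide printed above, had 5258, 4067 and 5471 CPM against 4240, 4204 and 3940, a log2 fold change of -0.26 (SE 0.13, adjusted p = 0.288, edgeR).

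The P-stalk recruits the elongation factors to the large subunit, with *Rplp0* as its base and *Rplp1* and *Rplp2* as its acidic arms. *Rplp0* had 2517, 2525 and 2974 CPM in WT and 3004, 2972 and 2746 CPM in KO, a log2 fold change of 0.12 (SE 0.11, adjusted p = 0.575, edgeR). *Rplp1* had 3579, 3022 and 4193 CPM against 3492, 3222 and 3051, a log2 fold change of -0.14 (SE 0.13, adjusted p = 0.580, edgeR). *Rplp2* had 1174, 1007 and 1317 CPM against 1142, 1104 and 1004, a log2 fold change of -0.11 (SE 0.11, adjusted p = 0.656, edgeR). All 3 overlapped between genotypes.

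Levels differed widely between core genes although their proteins occur once per ribosome, the acidic stalk proteins apart. Per kb of mRNA, the median core gene had 1603 CPM, with quartiles of 1141 and 2392. The small subunit had a median of 2117 and the large subunit 1219. The highest levels per kb were those of *Rpl41* (8327), *Rps14* (7039), a protein of the small-subunit platform, and *Rplp1* (6867). The lowest were those of *Rpl21* (257), *Rpl13a* (39.3) and *Rpl24* (2.31). *Rpl13a* and *Rpl24* had 55.2% and 80.1% of their windows shared, and *Rpl21* 36.8%. Across the core, the level per kb and the share of shared windows had a rho of -0.12 (n = 77 genes in the same libraries), and the medians of genes with at least 50% and under 50% of shared windows were 1587 and 1604. Lengths were those of 1 annotated transcript per gene, which for *Rps15a* (5130 bases) and *Rps20* (3706) is far longer than for most members. *Rps14* showed a log2 fold change of -0.13 (adjusted p = 0.609), *Rpl21* of -0.17 (adjusted p = 0.503) and *Rpl13a* of -0.08 (adjusted p = 0.687, all edgeR).

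Paralogs were compared with their parent genes because some are tied to a tissue. *Rpl3l*, the striated-muscle paralog of *Rpl3* (chr17:24727820-24736143, plus strand), had 413, 441 and 472 CPM in WT and 528, 495 and 515 CPM in KO libraries. Every KO value lay above every WT value, and no window was shared. The log2 fold change was 0.21 (SE 0.09, adjusted p = 0.220, edgeR), which did not pass the threshold. *Rpl3* had 814, 696 and 913 CPM against 798, 780.0 and 828, a log2 fold change of -0.01 (SE 0.11, adjusted p = 0.977, edgeR), with 79.4% of windows shared.

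Per length, *Rpl3l* stood at 0.499, 0.622 and 0.508 of *Rpl3* in WT and at 0.649, 0.623 and 0.611 in KO. The means were 0.543 ± 0.0688 in WT and 0.628 ± 0.0198 in KO (SD, n = 3 each), and WT 584 lay inside the KO range. The difference of 0.22 on the log2 scale gave p = 0.2 (exact permutation test, two-sided). The smallest p that this test can give with 3 libraries per genotype is 0.1.

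*Rps27l*, a p53-responsive paralog of *Rps27*, had 1255, 994 and 1468 CPM in WT and 1043, 1017 and 758 CPM in KO, and its log2 fold change was -0.40 (SE 0.16, adjusted p = 0.188, edgeR). WT 584 lay below KO 588 and KO 589. *Rps27* had 1413, 1058 and 1343 CPM against 1152, 1244 and 1178, a log2 fold change of -0.09 (adjusted p = 0.709, edgeR). *Rps27l* stood per length at 0.673 ± 0.0738 of *Rps27* in WT and 0.545 ± 0.0923 in KO (SD, n = 3 each), and these ranges overlapped. *Rps27rt*, a copy with the same coding bases, had 207, 175 and 198 CPM against 175, 191 and 169, a log2 fold change of -0.12 (adjusted p = 0.538, edgeR). With 98.4% of windows of *Rps27* and 89.5% of *Rps27rt* shared, the split of reads between these genes is uncertain. In *Rps27l* no window was shared.

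*Rpl39l*, known from the testis, had few counts beside its parent. It had 132, 136 and 128 counts in WT and 101, 72 and 129 counts in KO, or 7.72, 7.23 and 6.72 CPM against 5.63, 4.49 and 6.27. KO lay below WT, with a log2 fold change of -0.39 (SE 0.16, adjusted p = 0.201, edgeR). *Rpl39*, its X-linked parent at the tunnel exit, had 1523, 1262 and 1733 CPM against 1474, 1360.3 and 1365, a log2 fold change of -0.11 (adjusted p = 0.680, edgeR). Per length, *Rpl39l* reached between 0.00251 and 0.00435 of *Rpl39*.

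*Rpl22l1* had 315, 321 and 421 CPM in WT and 362, 354 and 313 CPM in KO, a log2 fold change of -0.04 (adjusted p = 0.897, edgeR). *Rpl22*, whose protein also binds RNA outside the ribosome, had 708, 699 and 792 CPM against 726, 710 and 678, a log2 fold change of -0.06 (adjusted p = 0.789, edgeR). *Rpl22l1* stood per length at 0.411 ± 0.0399 of *Rpl22* in WT and 0.417 ± 0.0186 in KO (SD, n = 3 each), which overlapped. In *Rpl22l1* 50.8% of the windows were shared, which leaves its values uncertain.

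The remaining pairs showed log2 fold changes close to 0 or rested on few counts. *Rpl7* and *Rpl7l1* had log2 fold changes of -0.02 (adjusted p = 0.943, edgeR) and 0.01 (adjusted p = 0.970, edgeR), with *Rpl7l1* at 0.0220 ± 0.00149 of *Rpl7* per length in WT and 0.0224 ± 0.000484 in KO (SD, n = 3 each). *Rpl36a* had 0.03 (adjusted p = 0.916, edgeR), and *Rpl36al*, with under 1 CPM in every library, 0.16 (SE 0.34, adjusted p = 0.847, edgeR). With 83.6% of windows of *Rpl36a* and 59.0% of *Rpl36al* shared, their split of reads is uncertain. *Rpl10* had -0.12 (adjusted p = 0.619, edgeR), with 91.6% of windows shared. *Rpl10l*, an intronless testis gene, had 0 counts in all 6 libraries, which allows up to 3 counts, or 0.149 to 0.185 CPM, per library (counting error only). *Rps4x*, whose paralog *Rps4l* is listed as a pseudogene, had 0.07 (adjusted p = 0.733, edgeR).

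**Figure D5:**
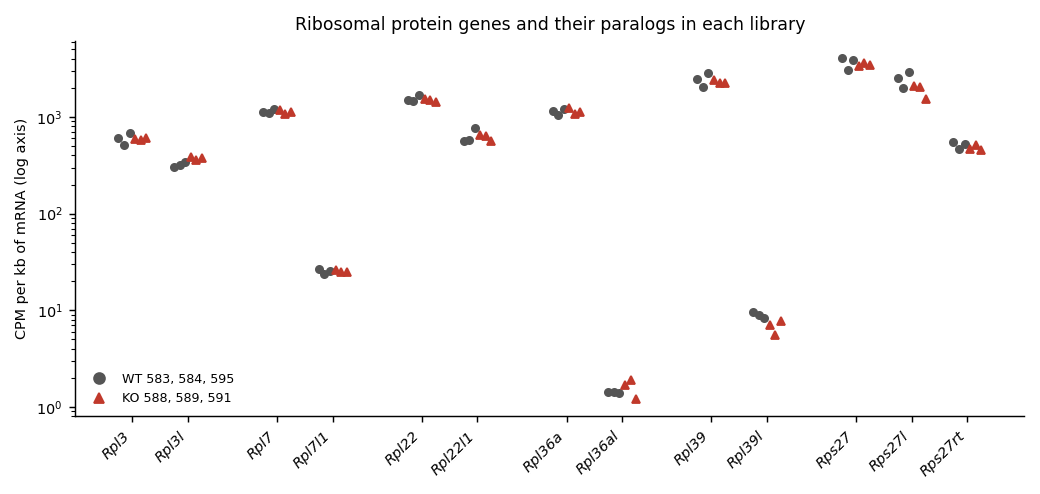
CPM per kb of mRNA on a log axis for each parent gene and its paralogs, 1 point per library, with circles for WT and triangles for KO. *Rpl3l* lies at 0.499 to 0.649 of *Rpl3*, while *Rpl39l*, *Rpl36al* and *Rpl7l1* lie far below their parents. Of the windows of *Rpl36al*, 59.0% were shared, and *Rpl10l*, at 0 counts, is left out.

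Fold changes were also set beside the promoter letters. The 12 core genes with a pyrimidine run at the annotated start had a median log2 fold change of -0.10 and the other 45 with a window -0.04. With the run sought within 10 bases of the start, the order turned: 31 genes with it had -0.04 and 26 without it -0.06. Those with the ETS letters, 23 genes, had -0.06 and the other 34 had -0.04.

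Genes that act on ribosomes were examined from lists written by hand. Of 18 tested TOP genes that code for no ribosomal protein, such as elongation factors, 0 passed and 10 had a positive sign, with a median log2 fold change of 0.05. *Eef2*, the translocase, had 1782, 1687 and 1865 CPM in WT and 2233, 2256 and 2370.0 in KO, and its log2 fold change of 0.36 did not pass (adjusted p = 0.0716, edgeR). Of 25 tested regulators of TOP mRNAs and of ribosomal protein genes, 0 passed and 22 had a positive sign, with a median of 0.18. Of 85 tested ribosome biogenesis genes, 1 was higher in KO, 0 were lower and 66 had a positive sign, with a median of 0.12. Over all tested genes 0.896% were called higher and 50.4% were positive. The one that passed was *Mphosph10*, a component of the small-subunit processome, with 13.7 ± 1.41 CPM in WT and 20.2 ± 1.00 in KO (SD, n = 3 each), a log2 fold change of 0.57 (adjusted p = 0.0231, edgeR). Of 8 tested snoRNA host transcripts, 0 passed. Of 20 tested p53 targets, *Pltp* was lower (log2 fold change -0.92, adjusted p = 0.00207, edgeR) and 0 were higher. Among these targets, 11 had a positive and 9 a negative sign, with a median of 0.02. At an unadjusted p under 0.05, edgeR listed 13 of the 20, where 19.8% of all genes reached that level. *Fau* and *Rack1*, which complete the small subunit outside the name rule, had log2 fold changes of -0.15 (adjusted p = 0.545, edgeR) and 0.00 (0.0044, adjusted p = 0.989, edgeR).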

How the data were processed

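RNA from muscle was made into TruSeq stranded mRNA libraries and sequenced in pairs, and the authors mapped the reads to mm10 (GRCm38) with HISAT2. The authors deposited whole-number counts per gene, without normalization. The counting tool, annotation and strand setting are not given in the sources used here. The submitters' processing notes name Bowtie 0.12.2 and the build mm8, and the sample records another library kit. Coordinates of genes were read from the count table; 76 of 85 members had identical ones in GENCODE vM21, from which coding sequences were taken. Protein sequences were not used here.

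The filter on low counts was filterByExpr (at least 10 counts, at least 15 in total) and the scaling TMM. The test was edgeR's quasi-likelihood test (version 4.0.16, glmQLFit and glmQLFTest, R 4.3.3), with genotype as the factor and Benjamini-Hochberg adjustment over all genes (threshold 0.05). Standard errors were the log2 fold change divided by the root of F, and 95% intervals used the t distribution with its total degrees of freedom. The procedure was tested on simulated data, with genes drawn independently and changes larger than that of any member. That test does not bear on smaller differences or on shifts shared by the genes of a library. The 100-base windows were compared in exact form over annotated transcripts. Named members were those past the threshold, the 5 highest and 5 lowest core fold changes, parents and paralogs, the 3 highest and 3 lowest levels and the stalk; *Rpl31*, *Rpl5*, *Rps15a* and *Rps20* were named after their values were seen, as were *Eef2*, *Fau* and *Rack1*. A few genes are left unnamed in the text. Members and lists were chosen with earlier results of these data known. Alternatives were DESeq2 1.42.0, limma-voom (limma 3.58.1), other scalings and filters, each library left out, and members summed with their pseudogenes.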

Additional observations from a re-analysis of the deposited data

How the results depend on the processing

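With genes of at least 1 count in any library tested, 4 members were lower in KO, where 3.23% of all genes were: *Rpl17* (-0.92), *Rps27a* (-0.52), *Rps27l* (-0.40) and *Rpl34* (-0.33). These fold changes were those of the main fit, and DESeq2 and limma-voom called no member. No member was higher in that fit or in any other. Leaving out each library in turn gave 0 to 1 lower member (*Rpl34*, without WT 584), 0 to 0 higher members, a core median between -0.11 and 0.03, a difference in the share of counts between -1.27 and -0.097 percentage points, a log2 fold change of *Rpl3l* between 0.16 and 0.26 and a difference in the log2 ratio of *Rpl3l* to *Rpl3* between 0.16 and 0.32. The widest of these ranges rest on WT 584 and WT 595. The share difference was -0.732 of protein-coding counts and -0.676 without haemoglobin and the 10 genes with the most counts. Of 435 values of 29 other named members under 15 alternatives, 430 stayed on the same side of the threshold, and 8 members changed sign at least once, none past the threshold. The cause was not tested. No paired analysis was possible because the sources used here do not pair single WT with single KO mice. With 3 mice each and a biological coefficient of variation of 12.1%, small differences could not be shown. The paper calls the WT mice of its fibre size comparison littermates, but nothing says whether the sequenced mice shared cages or litters.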
